A study of Mus musculus with 2 samples.

Results

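The let-7 family members described here are the products of 10 mouse hairpin genes, Mirlet7a-1, Mirlet7a-2, Mirlet7b, Mirlet7c-1, Mirlet7c-2, Mirlet7d, Mirlet7f-1, Mirlet7f-2, Mirlet7g and Mirlet7i, out of 1178 annotated miRNA hairpins. Members were the sequence tags of 18 to 30 nt that equalled a stretch of one of these hairpins, directly or after 1 to 3 nt had been trimmed from the 3′ end. They made up 512 of 758783 distinct tags in the Ia_low library and 867 of 1185709 in the Ia_high library. Both libraries came from spleen of C57BL/6J mice, an inbred strain. CD11c+ cells, CD11c being an integrin carried by dendritic cells and some monocytes and macrophages, were enriched on beads, stained for Ia, the mouse MHC class II molecule, and sorted into a CD11c+Ia low and a CD11c+Ia high population of over 95% purity, both labelled dendritic cells. The labels name no treatment, genotype, age, sex or number of pooled animals. Each population was sequenced as 1 small RNA library, so no test between groups was possible, no difference has a replicate check, and every interval below covers counting error only. The PCR product carried no stated molecular identifiers.

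let-7 miRNAs are cut from hairpin precursors by Drosha and then Dicer, and the 5p strand is the one usually loaded into Argonaute, where its seed (bases 2 to 8) selects target mRNAs. The family is widely expressed in differentiated cells, including immune cells, and restrains growth and cell cycle genes such as Ras genes, Hmga2 and the D-type cyclins. Its maturation is blocked by Lin28, which recruits terminal uridylyl transferases to add uridine tails to the precursor, and in human cells the same transferases can add a single uridine that aids processing when Lin28 is absent.

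The mature 5p sequences are shown since the members are told apart by very few bases and share their seed, which is in capitals. They are the RefSeq entries of build GRCm38.p6, 5′ to 3′.
let-7f-5p: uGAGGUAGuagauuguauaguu
let-7i-5p: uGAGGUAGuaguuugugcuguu
let-7a-5p: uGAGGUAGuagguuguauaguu
let-7g-5p: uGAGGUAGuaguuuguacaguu
let-7c-5p: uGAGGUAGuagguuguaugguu
let-7d-5p: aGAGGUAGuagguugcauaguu
let-7b-5p: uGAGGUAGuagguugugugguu
All 7 carried the seed GAGGUAG, and in both libraries together the most abundant tag of each of the 7 equalled its RefSeq entry. let-7a, let-7c and let-7f are each encoded by 2 of the 10 genes with identical mature 5p sequences.

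Hairpins are shown for 4 of the genes because the bases that follow the mature arms decide which added 3′ bases count as untemplated. Capitals mark the annotated mature arms, the 5p arm first.
Mirlet7f-1: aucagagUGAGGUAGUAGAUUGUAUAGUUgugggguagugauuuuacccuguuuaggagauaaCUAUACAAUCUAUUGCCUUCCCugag
Mirlet7f-2: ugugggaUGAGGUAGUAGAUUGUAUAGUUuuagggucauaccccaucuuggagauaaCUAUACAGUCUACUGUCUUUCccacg
Mirlet7i: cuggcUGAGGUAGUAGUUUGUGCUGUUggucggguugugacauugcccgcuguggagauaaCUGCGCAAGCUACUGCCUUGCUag
Mirlet7d: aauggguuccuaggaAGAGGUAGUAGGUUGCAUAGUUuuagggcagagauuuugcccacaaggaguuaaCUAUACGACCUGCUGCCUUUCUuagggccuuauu
After position 22 of the 5p arm the hairpin continues with G in Mirlet7i and Mirlet7f-1 and with U, read as T in the libraries, in Mirlet7f-2, Mirlet7d and the other 6 genes.

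On build GRCm38, Mirlet7a-1, Mirlet7f-1 and Mirlet7d lie within 2261 bp on the minus strand of chromosome 13 (48536012 to 48538272), in annotated exons of the lincRNA 6720427I07Rik. Mirlet7c-2 and Mirlet7b lie within 801 bp on the plus strand of chromosome 15 (85706603 to 85707403), in exons of the noncoding transcript Lncppara. The other 5 stand apart. Mirlet7a-2 is in an intron of the noncoding transcript 3110039I08Rik on chromosome 9, Mirlet7g in an intron of Wdr82 on the same chromosome, Mirlet7c-1 in an intron of the noncoding Mir99ahg on chromosome 16, Mirlet7f-2 in an intron of Huwe1 on chromosome X, and Mirlet7i in an exon of the transcribed pseudogene D630033A02Rik on chromosome 10.

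The libraries held 13739811 reads in Ia_low and 16388303 in Ia_high, of which 3643308 and 7403435 fell on single miRNA arms. The lower miRNA share of Ia_low touches every level below, because scaling to all reads instead of miRNA reads shifts each log2 ratio by -0.77. Distinct mRNA fragments in the same libraries numbered 133190 in Ia_low and 323872 in Ia_high. The 8 dendritic cell markers together gave 74.0 of every 10000 fragments in Ia_low and 131 in Ia_high. Of these markers, 4 were at least 2-fold lower in Ia_low, among them the MHC class II genes H2-Ab1 and H2-Eb1. H2-Aa, also an MHC class II gene, had a ratio of 0.510 (0.427 to 0.605) and was not called. The sort itself was gated on Ia. Of the defining genes, Itgax (CD11c) had 77 fragments in Ia_low and 320 in Ia_high. Scaled to total fragments its ratio was 0.585 (0.450 to 0.753), and it was not called. Flt3 had 5 and 153, a ratio of 0.0795, and Zbtb46 had 1 and 56, a ratio of 0.0434, both called lower. The 4 cDC1 markers summed to 7.43 of 10000 in Ia_low and 35.6 in Ia_high, all 4 called lower. The 6 Ly6C-low monocyte markers summed to 116 of 10000 in Ia_low and 46.9 in Ia_high, 5 of the 6 called higher. Over all 7008 measured genes 6.12% were called higher and 9.42% lower by the same rule. B cell and erythroid lists had no measured gene, the T cell list had 0 fragments in Ia_low and 32 in Ia_high, all of Tcf7, and the NK cell list summed to 0.375 of 10000 in Ia_low and 0.247 in Ia_high. The neutrophil list summed to 3.904 of 10000 in Ia_low and 0.957 in Ia_high, and its Csf3r was called higher, with 44 fragments in Ia_low and 22 in Ia_high, a ratio of 4.86 (2.85 to 8.52), while S100a8 and S100a9 had 3 fragments or fewer in each library. The part of this difference in cell markers in the let-7 results was not tested, and in these bulk libraries fewer cells of a type and less RNA per cell cannot be told apart.

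let-7 members were abundant in both populations, and nearly all of their reads were 5p reads. let-7 tags carried 951444 reads in Ia_low and 2107378 in Ia_high, or 26.1% and 28.5% of miRNA reads. The 7 5p arms together took 26.01% of miRNA reads in Ia_low (exact 95% interval 25.96 to 26.05) and 28.4% in Ia_high (28.36 to 28.43), a ratio of 0.916 (0.910 to 0.922). That interval and the ratio intervals below come from counts divided by the modal reads per tag, 9 in Ia_low and 4 in Ia_high. Its direction depended on the scaling, since the ratio was 0.998 when Ia_high reads were weighted for the difference in read length between the libraries and 1.14 when log2 ratios were centred on the median miRNA arm. Of all reads of the library, whatever their origin, let-7 5p reads were 6.90% in Ia_low and 12.8% in Ia_high.

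let-7f-5p, let-7i-5p and let-7a-5p made up 92.7% of let-7 5p reads in Ia_low and 94.0% in Ia_high. let-7f-5p, the leading member, stood at 137888 reads per 1000000 miRNA reads (CPM) in Ia_low and 164549 CPM in Ia_high, where it was the third and second most abundant of all miRNA arms. let-7i-5p followed with 70607 CPM in Ia_low and 68966 CPM in Ia_high. let-7a-5p had 32702 CPM in Ia_low and 33296 CPM in Ia_high. These levels lie far apart from each other and close together between the libraries. Below them came let-7g-5p with 7041 CPM in Ia_low and 9052 CPM in Ia_high, and let-7c-5p with 7841 CPM in Ia_low and 4406 CPM in Ia_high, so the order of these 2 arms was opposite in the libraries. let-7d-5p had 3163 CPM in Ia_low and 3279 CPM in Ia_high. let-7b-5p was the rarest 5p arm, at 850 CPM in Ia_low and 387 CPM in Ia_high.

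**Figure D1:**
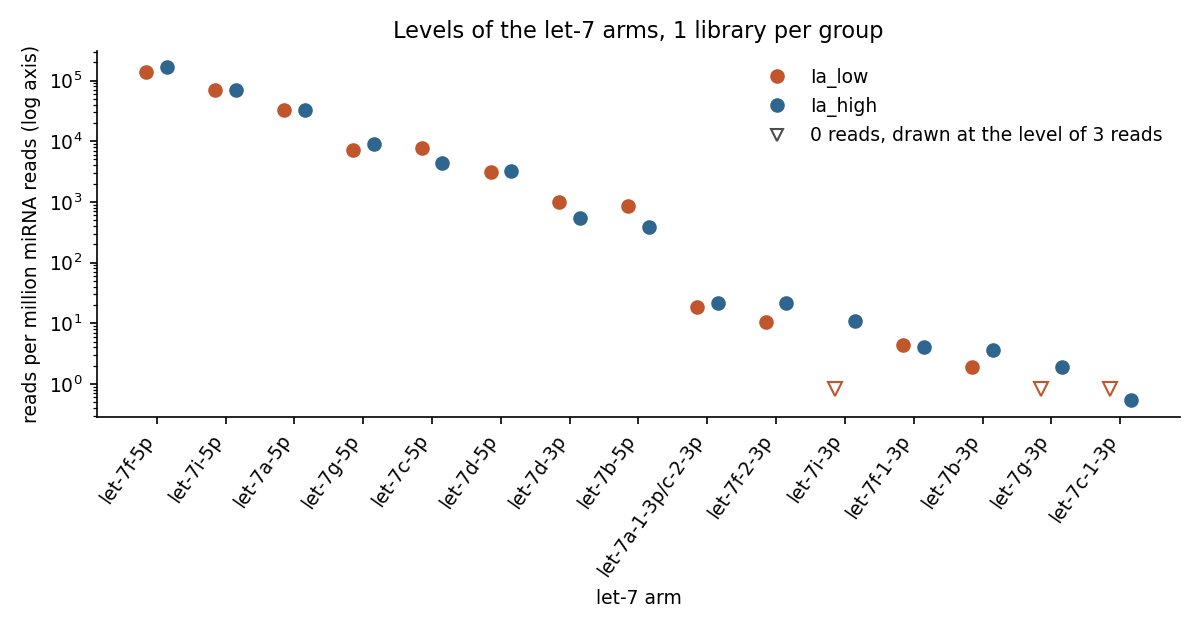
Level of each of the 15 let-7 arms with reads, in reads per 1000000 miRNA reads on a log axis, for Ia_low and Ia_high (1 library each, no error bars). The 7 5p arms and let-7d-3p lie above 300 in both libraries, the other 3p arms lie below 25, and open triangles stand for 0 reads in Ia_low, drawn at the level of 3 reads.

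An arm was called different when its CPM ratio was at least 2-fold, its exact 95% counting interval excluded 1 and its mean was 10 CPM or more. Of 15 let-7 arms with reads, 10 passed the floor of 10 CPM, and 1 was called higher and 1 lower in Ia_low. Over all miRNA arms the same rule called 10.1% higher and 31.4% lower (258 arms), and the median log2 ratio was -0.32 over all of them and -0.04 over the 10 let-7 arms. The arm called higher was let-7b-5p, with a ratio of 2.19 (1.92 to 2.497). Its ratio stayed above 1 under every scaling, at 1.29 when scaled to all reads, but was then no longer called. let-7c-5p had a ratio of 1.78 (1.71 to 1.85) and let-7d-3p one of 1.86 (1.65 to 2.09), both under the 2-fold threshold and both close to 1 (1.04 and 1.09) when scaled to all reads. let-7g-5p had a ratio of 0.778 (0.747 to 0.809) and was below 1 under each scaling. let-7f-5p had a ratio of 0.838 (0.830 to 0.846), which passed to 1.04 only when log2 ratios were centred on the median arm. let-7i-5p at 1.02 (1.01 to 1.04), let-7a-5p at 0.982 (0.964 to 1.001) and let-7d-5p at 0.965 (0.908 to 1.02) lay within 4% of equality, and the side of 1 on which these 3 fell depended on the scaling. The arm called lower was let-7f-2-3p, on 38 reads in Ia_low and 162 in Ia_high, and its ratio of 0.477 has an interval of 0.130 to 1.29 once counts are divided by reads per tag, which does not exclude 1.

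**Figure D2:**
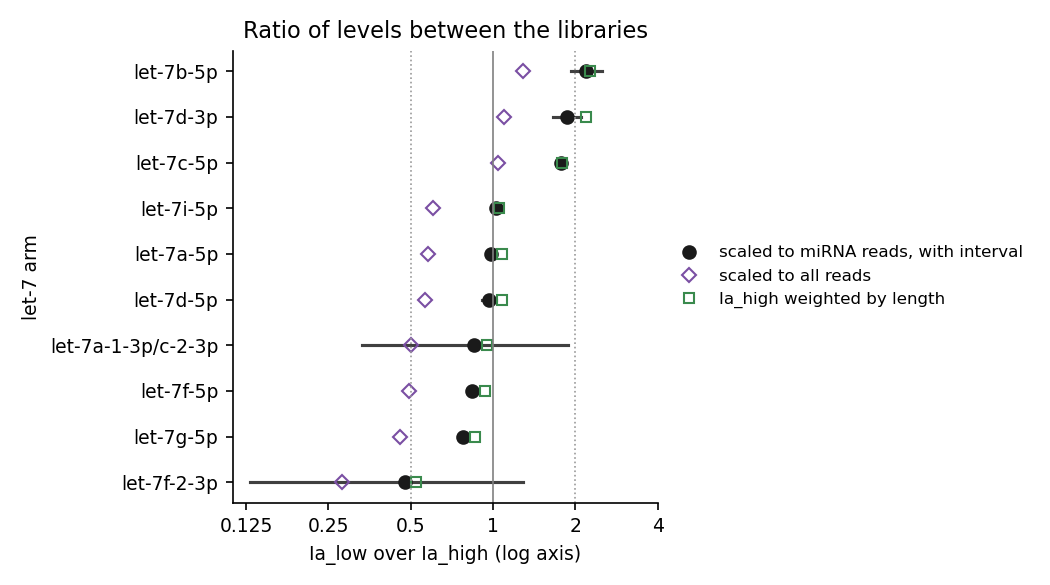
Ratio of Ia_low over Ia_high for the 10 measured let-7 arms on a log axis, with points scaled to miRNA reads, bars for the 95% counting interval at the modal reads per tag, open diamonds for scaling to all reads and open squares for the length weighting. let-7b-5p, let-7d-3p and let-7c-5p lie to the right of 1 under all 3, and dotted lines mark 2-fold in either direction.

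The make-up of the family needs no scaling between libraries. let-7b-5p was 0.327% of let-7 5p reads in Ia_low and 0.136% in Ia_high, and let-7c-5p was 3.01% in Ia_low and 1.55% in Ia_high. let-7f-5p was 53.0% in Ia_low and 58.0% in Ia_high, let-7g-5p 2.71% in Ia_low and 3.19% in Ia_high, let-7i-5p 27.1% in Ia_low and 24.3% in Ia_high. let-7a-5p and let-7d-5p had shares of 12.6% and 1.22% in Ia_low and of 11.7% and 1.15% in Ia_high. The 2 arms with the greatest share in Ia_low relative to Ia_high, let-7b and let-7c, are both encoded on chromosome 15, although let-7c also comes from Mirlet7c-1 on chromosome 16. Reads that fitted Mirlet7c-2 alone numbered 388 in Ia_low and 266 in Ia_high, and those that fitted Mirlet7c-1 alone 229 in Ia_low and 377 in Ia_high. Those reads differ only in added 3′ bases, so the gene of origin and an untemplated addition cannot be told apart. The members with a gene on chromosome 13, let-7a, let-7f and let-7d, had 5p ratios of 0.982, 0.838 and 0.965. Those of let-7a and let-7f also count the products of Mirlet7a-2 on chromosome 9 and Mirlet7f-2 on chromosome X.

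Members that differ by 1 base could borrow reads from each other by sequencing error, and the tags themselves set the size of that. The let-7a-5p main tag differs from that of let-7f-5p by A12G (positions counted from 1 at the 5′ end, the base of the first-named source before the position), and it had 27.5% of the reads of the let-7f tag in Ia_low and 23.3% in Ia_high. The 59 other single-base changes at inner positions of the let-7f tag had a median of 0.00704% of its reads in Ia_low and 0.00689% in Ia_high and at most 0.0570% and 0.0619%. let-7c-5p differs from let-7a-5p by A19G and had 23.3% of its reads in Ia_low and 12.7% in Ia_high, against at most 0.0714% and 0.0731% for other changes. let-7b-5p differs from let-7c-5p by A17G and had 4.75% of its reads in Ia_low and 3.89% in Ia_high, against at most 0.577% and 1.34%. The abundant members were thus measured far above the level of such changes, and let-7b-5p by a smaller margin. let-7 tags that fitted more than 1 arm were left out of the counts of single arms, and they held 61 reads in Ia_low and 811 in Ia_high.

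Of relatives outside the 10 genes, miR-98-5p, which shares the let-7 seed, had 2872 CPM in Ia_low and 3762 CPM in Ia_high, a ratio of 0.763. let-7e-5p had 22.8 CPM in Ia_low and 89.0 CPM in Ia_high, 3.91-fold lower in Ia_low. Its main tag differs from that of let-7a-5p by T9G and had 0.105% of the reads of the let-7a tag in Ia_low and 0.203% in Ia_high, against at most 0.0714% and 0.0731% for other changes. Among 51 arms at a mean of 1000 CPM or more, those outside the family with a log2 ratio closest to that of the summed let-7 5p reads (-0.13) were Mir140-3p and Mir10b-5p, both at -0.08, and Mir92-2-3p at -0.19, a likeness over 2 libraries only.

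The 3p arms were rare apart from that of let-7d. let-7d-3p had 3662 reads in Ia_low and 3999 in Ia_high, 96.6% and 89.3% of all let-7 3p reads. The arm shared by let-7a-1-3p and let-7c-2-3p had 67 reads in Ia_low and 160 in Ia_high, let-7f-1-3p 16 and 30, let-7b-3p 7 and 27, and no tag fitted let-7a-2-3p alone in either library. let-7i-3p had 0 reads in Ia_low and 81 in Ia_high, which at a floor of 3 reads makes it at least 13.3-fold lower in Ia_low, and at least 1.48-fold when the floor is 3 tags of the most common size. let-7g-3p had 0 reads in Ia_low and 14 in Ia_high, and let-7c-1-3p 0 and 4.

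Arm balance, the ratio of 5p to 3p reads of a hairpin, therefore set let-7d apart from the other members within each library. It was 3.15 in Ia_low and 6.07 in Ia_high for Mirlet7d, a log2 difference of -0.95, so that relatively more let-7d-3p was read in Ia_low. Mirlet7b had 442 5p reads per 3p read in Ia_low and 106 in Ia_high, the let-7f genes 9303 and 6345, and the let-7a and let-7c genes together 2205 and 1702. Balance differed by 1 or more on the log2 scale, with 0.5 added to each count, in 3 of 6 groups of let-7 hairpins, Mirlet7b, Mirlet7g and Mirlet7i, always toward the 5p arm in Ia_low, and in 0 toward the 3p arm. Of all 148 hairpins or groups of hairpins, 25.7% differed by as much toward the 5p arm and 22.3% toward the 3p arm. All 3 let-7 cases rest on 7 or fewer 3p reads in Ia_low. The median difference was 1.26 over the let-7 groups and 0.09 over all hairpins.

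let-7 5p reads had nearly uniform starts. The most common start held 99.88% of all let-7 5p reads in Ia_low and 99.90% in Ia_high, so the seed was the same in almost every read. Of the arms with 1000 reads or more in each library, those of let-7d varied most. let-7d-5p had 97.5% of its reads at the main start in Ia_low and 98.2% in Ia_high, with 2.005% and 1.77% starting 1 base earlier, and let-7d-3p had 95.8% in Ia_low and 95.0% in Ia_high, with 3.905% and 4.43% starting 1 base later. let-7g-5p started 1 base earlier in 0.990% of reads in Ia_low and 0.679% in Ia_high. None of the 8 arms with 1000 reads or more in each library differed by 5 percentage points or more in main start, against 11.2% of the 89 arms of all miRNAs at that depth.

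The 3′ ends varied more than the starts, and let-7 reads ended slightly later in Ia_low. Among exact matches at the main start, let-7 5p reads had a mean length of 21.9 nt in Ia_low and 21.8 nt in Ia_high, a difference of 0.10 nt. let-7b-5p had the greatest difference of the 5p arms, with 21.8 nt in Ia_low and 21.5 nt in Ia_high, and let-7i-5p the smallest, 21.92 nt in Ia_low and 21.90 nt in Ia_high. All 8 abundant let-7 arms were longer in Ia_low by some amount, as were 90.9% of all 88 miRNA arms compared, and 0 of the 8 were longer by 0.5 nt or more, against 9.09% of all arms. The median difference was 0.11 nt over the let-7 arms and 0.13 nt over all arms.

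**Figure D3:**
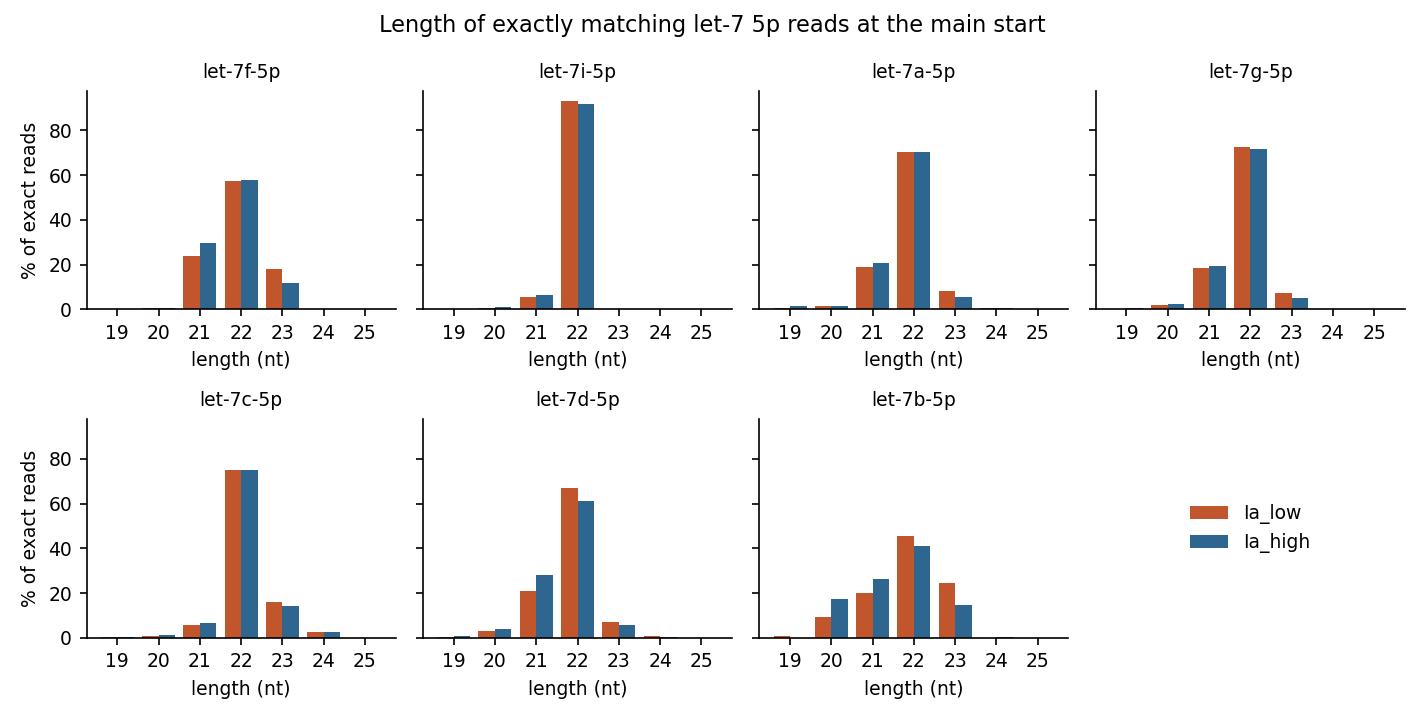
Length in nt of exactly matching reads at the main start for the 7 let-7 5p arms, as a percentage of such reads in Ia_low and Ia_high (1 library each). Reads of 22 nt lead in each panel, let-7i-5p is almost uniform at 93.2% in Ia_low and 91.8% in Ia_high, and let-7f-5p shows more reads of 23 nt in Ia_low (18.0%) than in Ia_high (11.8%).

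let-7f-5p differed most plainly in its 23 nt tag. The 5p tags of let-7f and let-7i that bear on this are listed with untemplated 3′ bases in capitals, and the letters are those of the libraries.
let-7f-5p main tag: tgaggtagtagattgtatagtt
let-7f-5p shorter by 1 base: tgaggtagtagattgtatagt
let-7f-5p longer by T: tgaggtagtagattgtatagttt
let-7f-5p longer by A: tgaggtagtagattgtatagttA
let-7i-5p main tag: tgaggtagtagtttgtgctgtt
let-7i-5p longer by A: tgaggtagtagtttgtgctgttA
let-7i-5p longer by T: tgaggtagtagtttgtgctgttT
The let-7f main tag held 53.8% of let-7f-5p reads in Ia_low and 53.6% in Ia_high. The tag shorter by 1 base held 22.3% in Ia_low and 27.5% in Ia_high, and the tag longer by T held 16.6% in Ia_low and 10.8% in Ia_high. A T at position 23 matches Mirlet7f-2 and not Mirlet7f-1, whose next base is G, and the tag ending in that G had 1457 reads in Ia_low and 2528 in Ia_high. The T reads cannot be assigned to Mirlet7f-2 by this base alone, because the same T stood untemplated on let-7i-5p.

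Untemplated 3′ bases were found on 13.4% of let-7 5p reads in Ia_low and 12.3% in Ia_high. The arms did not share this direction. Ia_low minus Ia_high was 2.75 points for let-7i-5p, 0.98 for let-7d-5p and 5.48 for let-7b-5p. It was -0.58 for let-7f-5p, -1.02 for let-7a-5p, -0.23 for let-7g-5p and -2.17 for let-7c-5p. Over the pooled 5p reads a single A was the most frequent untemplated end, on 8.72% in Ia_low and 8.99% in Ia_high. A single T followed, on 2.63% in Ia_low and 1.79% in Ia_high. After the 22 nt main form, a T counts as untemplated for let-7i-5p alone. The order of A and T therefore depends on what the matching can see. A single C was found on 0.260% in Ia_low and 0.192% in Ia_high and a single G on 0.0870% and 0.0723%, and base errors can give any of the 4 bases. let-7i-5p, whose hairpin continues with G so that a T added to the 22 nt form shows as untemplated while one added to the 20 or 21 nt form does not, had A on 14.99% of reads in Ia_low and 14.9% in Ia_high and T on 9.56% in Ia_low and 7.29% in Ia_high. let-7b-5p was the most tailed of the 5p arms, with 41.7% in Ia_low (36.6 to 47.3) and 36.3% in Ia_high (32.7 to 39.9), mostly tails of more than 1 base. let-7d-3p had tails on 11.9% of reads in Ia_low (8.82 to 15.3) and 18.4% in Ia_high (16.0 to 20.9), and its single A tails stood at 5.95% in Ia_low and 11.4% in Ia_high. The intervals of the tailed share overlap between the libraries for the 5p arms of let-7b, let-7c, let-7d and let-7g. They do not for let-7d-3p, nor for the more deeply read let-7f-5p, let-7i-5p and let-7a-5p. Such overlap was not counted over all miRNA arms. let-7b-5p was the 1 of 8 let-7 arms with a tailed share at least 5 points higher in Ia_low, and let-7d-3p the 1 of 8 at least 5 points lower. Of all 89 arms, 40.4% were at least 5 points higher and 3.37% at least 5 points lower. The median difference was -0.41 points over the let-7 arms and 2.92 points over all arms, a description of 2 libraries without a test.

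The ratio of T to A after the main 22 nt end was higher in Ia_low than in Ia_high for all 7 let-7 5p arms. let-7f-5p had 83217 T and 26365 A reads in Ia_low and 131183 T and 70663 A reads in Ia_high, a T over A ratio of 3.16 in Ia_low and 1.86 in Ia_high. let-7a-5p had a ratio of 1.06 in Ia_low and 0.617 in Ia_high, and let-7b-5p, the arm with the greatest difference, 5.12 in Ia_low and 2.16 in Ia_high. In all 3 arms T can be templated, and for let-7a-5p the more frequent base was T in Ia_low and A in Ia_high. let-7g-5p had 0.827 in Ia_low and 0.579 in Ia_high, let-7c-5p 1.79 and 1.43, and let-7d-5p 1.87 and 1.72. let-7i-5p, where T is untemplated, had 24446 T and 37388 A reads in Ia_low and 36958 T and 73403 A reads in Ia_high, a ratio of 0.654 in Ia_low and 0.503 in Ia_high. The log2 difference of T over A was 0.5 or more in 4 of 7 let-7 arms (f, a, g and b), against 46.8% of all 77 arms with enough reads, and above 0 in 7 of 7, against 70.1% of all. The medians were 0.51 over the let-7 arms and 0.38 over all arms. The 3′ sequencing adaptor, as seen in longer tags, also begins with T, and an adaptor base left by trimming and an added T cannot be told apart by sequence. Reads of let-7i-5p that went on with the second adaptor base after this T numbered 0 in Ia_low and 23 in Ia_high. Such reads numbered 12 in Ia_low and 9 in Ia_high for let-7f-5p, and 14 and 3 for let-7a-5p. They were 1 and 12 for let-7c-5p, 13 and 16 for let-7d-5p, 0 and 16 for let-7b-5p, and 0 in both for let-7g-5p. A leftover of the first adaptor base alone would not show in these counts.

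**Figure D4:**
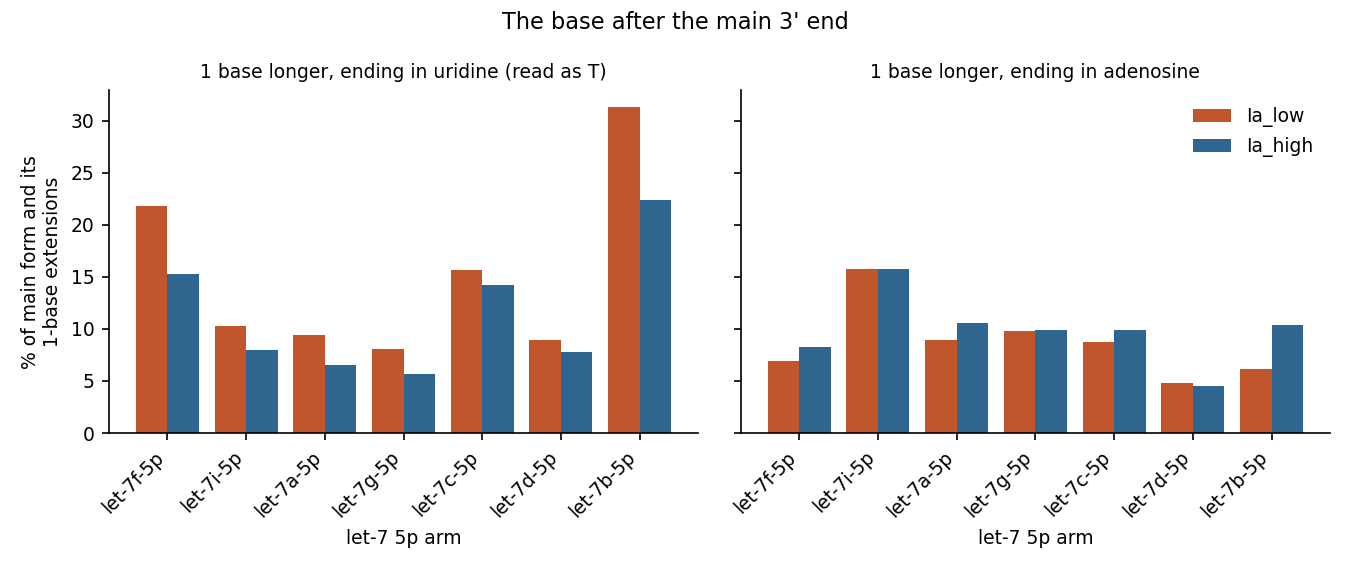
Share of reads 1 base longer than the 22 nt main form that end in uridine (left panel) or adenosine (right panel), as a percentage of the main form and its 1-base extensions, for the 7 let-7 5p arms in Ia_low and Ia_high (1 library each). The uridine bars are taller in Ia_low for every arm, 21.8% in Ia_low and 15.3% in Ia_high for let-7f-5p, while adenosine on let-7i-5p was 15.8% in both.

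Over both libraries together, the rare 3p arms other than let-7i-3p and let-7c-1-3p ended mostly in an untemplated T. Tags of 3p arms are shown with untemplated bases in capitals. Each line is the most abundant tailed tag of its arm in both libraries together, except that let-7d-3p is shown by its most abundant tag. The Mirlet7d hairpin has T at the last place of that tag, so an added T there cannot be told from a templated one.
let-7a-1-3p and let-7c-2-3p: ctatacaatctactgtctttcT
let-7f-2-3p: ctatacagtctactgtctttcT
let-7f-1-3p: ctatacaatctattgccttccT
let-7b-3p: ctatacaacctactgccttcTT
let-7g-3p: ctgtacaggccactgccttgcT
let-7d-3p: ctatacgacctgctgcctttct
The tailed tag of let-7a-1-3p and let-7c-2-3p had 36 reads in Ia_low and 126 in Ia_high, and the exact 22 nt form of the RefSeq entry had 18 in Ia_low and 7 in Ia_high. The tailed tag of let-7f-2-3p held all 38 reads of that arm in Ia_low and 145 of 162 in Ia_high. let-7f-1-3p ended in untemplated T in 16 of 16 reads in Ia_low and 11 of 30 in Ia_high, and let-7b-3p in 7 of 7 in Ia_low and 18 of 27 in Ia_high. All 14 reads of let-7g-3p, seen in Ia_high alone, ended in T, and they started 1 base after the start of the RefSeq entry.

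Over the 3p arms other than let-7d, tails made of T stood on 110 of 128 reads in Ia_low (85.9%) and 320 of 478 in Ia_high (66.9%), or 320 of 397 (80.6%) in Ia_high without let-7i-3p, which had no reads in Ia_low. The difference between the libraries was not tested. Of 6 let-7 3p arms with 20 reads or more in both libraries together, 4 had T tails on 50% of reads or more, against 13.1% of all 236 3p arms with such depth, and the median share was 66.1% over the let-7 arms and 15.5% over all. let-7i-3p had T tails on 0 of 81 reads in Ia_high. Its hairpin does not continue with T after 20 or 22 nt but does after 21 nt, where an added T cannot be seen. The 22 nt form that ends in this T had 19 of the reads, so the 0 covers only T added after 20 or 22 nt. let-7d-3p hides a T added to its 21 or 22 nt forms, because its hairpin has T at both places. Reads with T after the 22 nt form were 27 beside 2681 reads of that form in Ia_low and 18 beside 2110 in Ia_high. These counts do not show how many of the 22 nt reads were 21 nt forms with an added T.

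**Figure D5:**
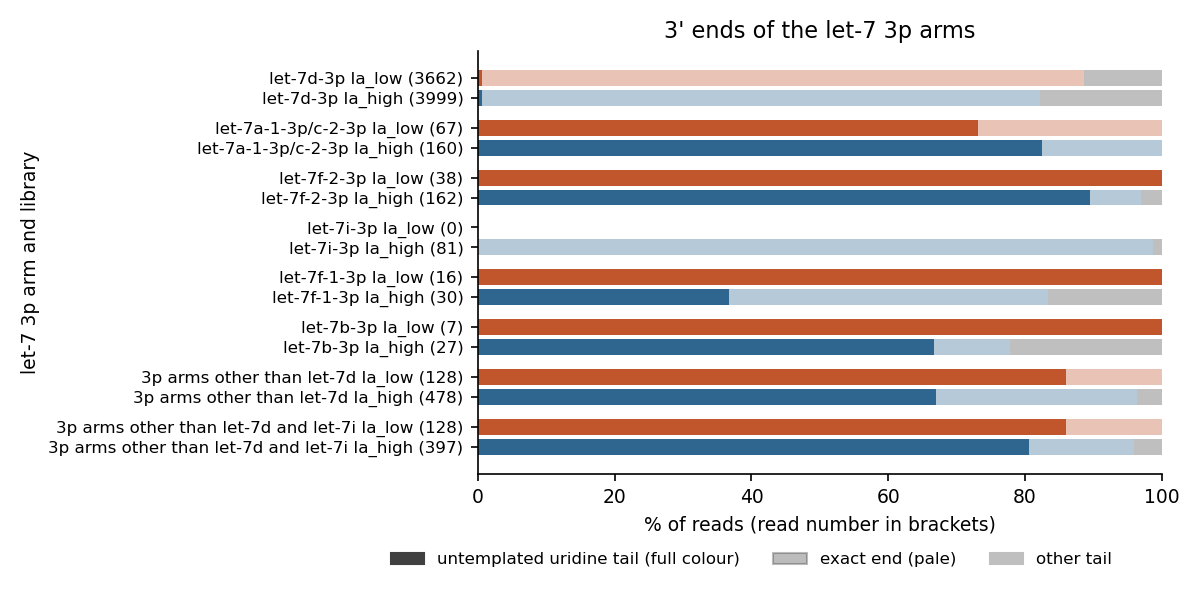
3′ ends of the let-7 3p arms with 20 reads or more in both libraries together, as a percentage of reads in Ia_low and Ia_high, with read numbers in brackets. Full colour marks tails of untemplated uridine, pale colour exact ends and grey other tails. The last 2 pairs are sums that also count rarer arms, with uridine tails on 85.9% of reads in Ia_low and 66.9% in Ia_high without let-7d-3p, and on 85.9% and 80.6% without let-7d-3p and let-7i-3p.

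Genes known to act on let-7 were read as distinct mRNA fragments in the same libraries. Fragments in a library of RNA under 30 bases may not follow mRNA levels. Of 17 let-7 regulators 12 had enough fragments, and 0 were called higher and 0 lower in Ia_low, against 6.12% and 9.42% of all 7008 genes measured. No fragment of Lin28b or Trim71 was found, and Lin28a had 0 in Ia_low and 1 in Ia_high. The uridylyl transferases Tut4 and Tut7 had 15 and 23 fragments in Ia_low and 54 and 64 in Ia_high, ratios of 0.675 (0.354 to 1.21) and 0.874 (0.518 to 1.43) after scaling to total fragments. Dicer1 had 17 fragments in Ia_low and 42 in Ia_high, and Ago2, the slicing Argonaute, 46 and 165, a ratio of 0.678 (0.478 to 0.945).

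Of 33 reported let-7 targets, known mostly from human and mouse cells, 22 were measured. In Ia_low 5 were called higher, 2 lower and 15 neither, beside 6.12% called higher and 9.42% called lower over all measured genes, and the median log2 ratio was 0.25 over the 22 and -0.13 over all measured genes. Thbs1, a secreted matrix protein, had 84 fragments in Ia_low and 80 in Ia_high, a ratio of 2.55 (1.86 to 3.51). Tgfbr1, a TGF-β receptor, had 76 in Ia_low and 71 in Ia_high, a ratio of 2.60 (1.86 to 3.65). Prdm1, a transcriptional repressor, Arid3a, a DNA-binding protein, and Igf1r, a growth factor receptor, had 20, 16 and 16 fragments in Ia_low and 8, 13 and 11 in Ia_high. The 2 called lower were D-type cyclins, Ccnd1 with 4 fragments in Ia_low and 127 in Ia_high and Ccnd2 with 7 in Ia_low and 63 in Ia_high, 13.1-fold and 3.70-fold lower. The list thus held calls in both directions.

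The host genes of the intronic members gave no call. Wdr82, host of Mirlet7g, had 18 fragments in Ia_low and 52 in Ia_high, a ratio of 0.842 (0.463 to 1.46), beside a let-7g-5p ratio of 0.778. Huwe1, host of Mirlet7f-2, had 68 in Ia_low and 279 in Ia_high, a ratio of 0.593 (0.448 to 0.775). The noncoding host of the chromosome 13 genes, 6720427I07Rik, had 5 fragments in Ia_low and 18 in Ia_high, and the other noncoding hosts had at most 1 in either library.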

How the data were processed

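Each library was deposited as a list of distinct sequences with a count of reads and the length of each sequence. The deposited counts are unscaled, as their whole values and unequal totals show. Per the labels' protocols, RNA under 30 bases was gel purified, ligated to a pair of adaptors, amplified for 12 cycles and sequenced on a Solexa instrument. The authors' adaptor trimming, read filters, aligner and build were not given in the sources used here. The depth was 13739811 reads in Ia_low and 16388303 in Ia_high.

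Sequences of 18 to 30 nt were compared, allowing no mismatch, with 1178 miRNA hairpins of GENCODE M21 (GRCm38), directly or after trimming up to 3 nt at the 3′ end, with 15 nt or more matched and the least trimming taken. Arms are the sides of a hairpin before (5p) and after (3p) its middle, and those whose leading tag was identical were joined. Trimmed nucleotides are called untemplated. A base that happens to equal the hairpin cannot be seen as untemplated. CPM are reads per 1000000 reads on single miRNA arms. Ratios are Ia_low over Ia_high with exact (Clopper-Pearson) 95% intervals. Printed ratio and tail intervals divide counts by the modal reads per tag above 1, a choice made after seeing the data, whereas calls and shares of miRNA reads used reads and mRNA intervals used distinct fragments. Ends were compared at 1000 reads or more, arm balance and T over A at 100. mRNA fragments are tags of 20 to 30 nt matching 1 protein-coding gene, each counted once, for genes with 10 or more in both libraries together. Mature and hairpin sequences are from RefSeq (GRCm38.p6), and all 10 genes matched.

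All members were named, with both arms. mRNA members called were named up to 4 a list by most fragments, and Prdm1, Arid3a, Igf1r and the uncalled regulators were added after their values were seen. Members, lists, thresholds and alternatives were chosen with earlier results of these data known. Alternatives covered scaling, floor, fold, exact matches, shared tags, tags read once, lengths and length weighting. The scripts were tested on simulated data. Python 3.11.15, numpy 2.4.6, scipy 1.17.1 and matplotlib 3.10.9 were used.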

Additional observations from a re-analysis of the deposited data

Results flagged for a closer look

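Tags of 31 to 44 nt lie outside the length range used above, and some begin with the first 18 nt of a let-7 arm. There were 144 such tags with 677 reads in Ia_low and 340 with 2264 reads in Ia_high, above the 3 reads that a count of 0 allows. Of these reads 90.8% in Ia_low and 95.3% in Ia_high contained the start of the 3′ adaptor after the let-7 sequence. They were counted in no result.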

How the results depend on the processing

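No paired analysis was possible because each group has 1 library, and no replicate could be left out. The ratio of let-7 5p shares, 0.916, was 0.538 with all reads as denominator, 0.968 with exact matches only, 0.928 with lengths of 20 to 24 nt and 0.998 with the length weighting and 1.14, the opposite direction, when centred on the median arm, both added after seeing the data, and without tags read once it stayed at 0.916. The count of arms called higher, 1, was 0 when scaled to all reads, 3 when centred on the median arm or at 1.5-fold (let-7b-5p, let-7c-5p and let-7d-3p), and 2 with exact matches or with the length weighting (let-7b-5p and let-7d-3p). The count called lower, 1, was 4 when scaled to all reads (let-7f-5p, let-7g-5p, let-7f-2-3p and the arm of let-7a-1-3p and let-7c-2-3p), 2 at a floor of 1 CPM, where let-7i-3p joined, and 0 when centred, with exact matches, with the length weighting or with counts divided by reads per tag. The difference in mean 5p length, 0.0997 nt, was 0.107 nt with tails included and 0.0907 nt at 20 to 24 nt. Tails, starts, arm balance counts and T over A counts stayed within their counting error or within 1.5 times under each alternative run on them, although with exact matches the let-7f genes took the place of Mirlet7g among the 3 differences in arm balance. The 2 called arms kept their direction in all 11 of their recomputed ratios, whereas 5 of the other arms, the 5p arms of let-7a, let-7d, let-7f and let-7i and the arm of let-7a-1-3p and let-7c-2-3p, crossed 1 under at least 1 setting. Why a value moved was not tested, beyond what each setting itself changes. Depth limits the 3p arms most, since 3 reads equal 0.823 CPM in Ia_low and 0.405 CPM in Ia_high.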
